A study of Ovis aries with 56 samples.

Results

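The oxytocin receptor (OXTR), the neuropeptide galanin (GAL) and the amine receptors HRH2 and HTR2A were followed in the amygdala of sheep whose puberty was suppressed with an agonist of gonadotropin-releasing hormone (GnRH). These 4 genes were chosen as a group of receptors and ligands through which peptides and amines act on the amygdala, out of 721 genes that could be named on the array. The choice was made with earlier results of these data known, so the unadjusted p-values and ranks below are a description. All array probes, apart from control spots, that the array's annotation assigned to one of the 4 genes were taken, which gave 7 of 15008 probes. OXTR, GAL and HRH2 had 2 probes each and HTR2A had 1. All 7 were measured often enough to be tested. A pair of probes annotated as GAL-1 was set aside because that name stands for galectin-1 (LGALS1) and not for galanin.

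Each of the 56 arrays compared RNA from 1 side of the amygdala of 1 sheep with a common pool of amygdala RNA from both sexes and sides. Every level below is therefore a log2 ratio to that pool. It is read as sample over pool, a direction that the sources do not state. All animals were Scottish Mule Texel crosses aged 50 weeks, from 15 same-sex twin pairs in which 1 twin received implants of the GnRH agonist goserelin acetate (3.6 mg each, renewed at intervals of 4 weeks; rams started at 8 weeks of age and ewes at 28) and the other stayed untreated as control. The 8 groups were therefore male control left, male control right, male GnRHa left, male GnRHa right and the same 4 in females, with 7 arrays each. Because rams and ewes started at different ages, sex and age at first implant cannot be told apart in treated animals. The same holds where the GnRHa effect is compared between sexes. The implants act on the whole animal, and the amygdala was sampled as bulk tissue. The control RNAs spiked into the samples did not give the ratios seen elsewhere on 15 arrays, which were left out, so that 41 arrays from 25 animals remained, with 5 in male control left, 4 in male control right, 6 in each male GnRHa group and 5 in each female group. On 3 of the 41 (male GnRHa left and right replicate 6, and female control right replicate 7) the spike-ins ran in the opposite direction, and the values and the dye were turned. Of the 41 arrays, all 10 from the left side of females then carried the sample in the dye Cy3 and all 10 from the right side of females in Cy5, so that in females side and dye cannot be told apart. The number of arrays limits the precision of every value. No marker on the lists for neurons or oligodendrocytes could be named on the array, so the tissue could not be checked through these cells. The 4 named astrocyte markers GFAP, SLC1A2, SLC1A3 and AQP4 had a mean log2 brightness of 6.82, 7.37, 6.77 and 9.74, against a median of 5.79 over all probes. Of markers of neighbouring tissues, the choroid plexus gene TTR (8.59) and the pituitary gene LHB (8.89) were also bright, and the other 5 pituitary markers tested lay between 5.32 and 5.62.

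Oxytocin is a peptide made by hypothalamic neurons and released in the brain as well as the blood; its receptor OXTR couples to Gq proteins, is present on neurons of the amygdala, and takes part in social recognition, maternal behaviour and fear. In sheep, the receptor gene is also well known from the uterus, where its level changes over the oestrous cycle. Galanin is a peptide often released together with a classical transmitter, and acts through the receptors GALR1, GALR2 and GALR3. HRH2 is the Gs-coupled histamine receptor H2, known from the stomach and also present on neurons, and HTR2A is the Gq-coupled serotonin receptor 2A of cortical and limbic neurons.

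All 4 genes gave dim signals. The 2 OXTR probes had a mean log2 brightness over all arrays of 5.85 (A_70_P051381) and 5.82 (A_70_P051382), and both were brighter than each of the 77 negative-control spots, which ranged from 5.07 to 5.69. HRH2 differed between its probes, with 5.85 for A_70_P041502, above all 77 negative spots, and 5.53 for A_70_P041501, above 68 of them. GAL had 5.54 (A_70_P001472, above 69 of 77) and 5.48 (A_70_P001471, above 64), and the single HTR2A probe (A_70_P041336) had 5.45 and exceeded 60 of the 77. Thus OXTR and the brighter HRH2 probe stood near the middle of the array, at the 52.5 and 52.7 percentile of all probes, and the galanin and serotonin receptor probes lay within the range of the negative spots.

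On the arrays used, all missing values of these genes fell on probes within the brightness range of the negative spots. Among those probes the missing values did not follow brightness. Neither OXTR probe nor the brighter HRH2 probe lacked a value on any of the 41 arrays, and the dimmer HRH2 probe and HTR2A each lacked 1 (2.44%). Of the GAL probes, the brighter lacked 10 values (24.4%) and the dimmer 6 (14.6%), so that galanin in male control right rests on 2 arrays. A further sign of low signal was that many spots of an array held exactly the same ratio. A GAL value was shared with a median of 135 other spots of its array for the brighter probe and 143 for the dimmer. For HTR2A the median was 14.5 other spots, for the HRH2 probes 6 (brighter) and 23 (dimmer), and for OXTR 0 (brighter) and 2 (dimmer). Over all spots the median was 4, and it was 107 among the dimmest spots and 0 among the brightest, each class holding 25% of the spots. Over 20 other spots shared 96.8% of the GAL values on the brighter probe and 97.1% on the dimmer, against 0.98% and 0% for OXTR.

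The 2 probes of a gene ran closely together for OXTR alone. Across 41 arrays the 2 OXTR probes had a Pearson correlation of 0.93, and the 5 spots of the brighter probe correlated with each other at 0.91 to 0.95, with a median SD of 0.21 between the spots of an array. The 2 HRH2 probes correlated at 0.36 over 40 arrays and the 2 GAL probes at -0.064 over the 27 arrays on which both had a value. Among 310 named genes with 2 probes and at least 25 shared arrays the median correlation was 0.62. These are correlations across arrays that share the pool, given as a description. For each gene the brighter probe is used below, with the dimmer beside it where they part. HRH2 and GAL values rest on 1 probe that the other did not follow closely.

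**Figure D1:**
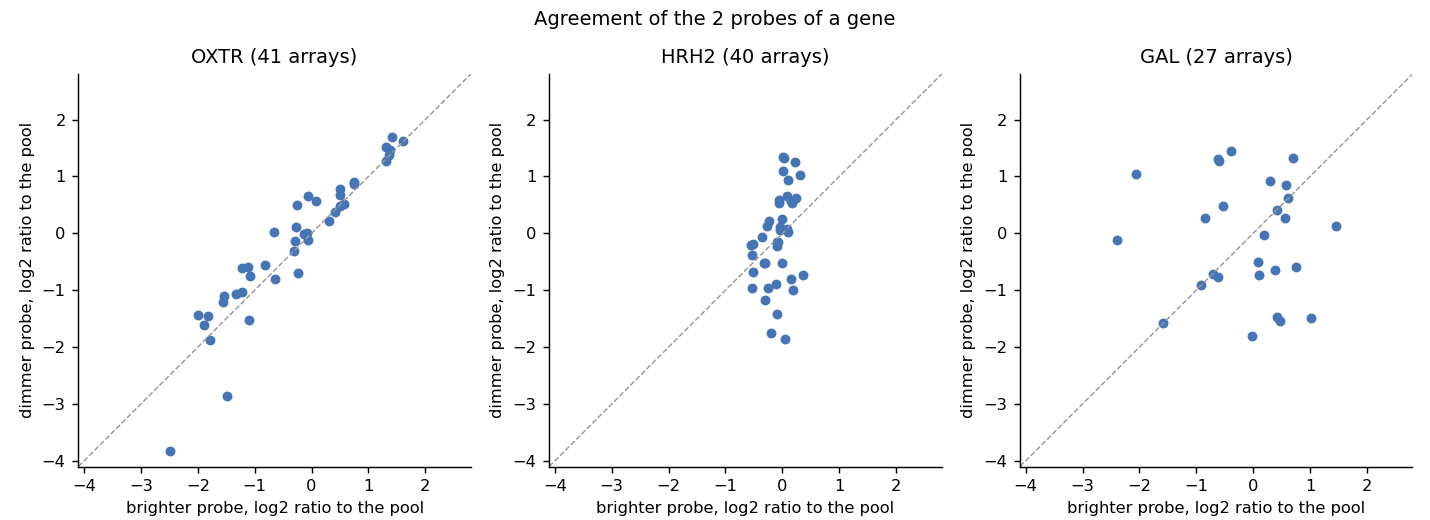
Each point is 1 array, with the log2 ratio to the pool from the brighter probe on the x axis and from the dimmer probe on the y axis; the dashed line marks equal values. OXTR points follow the line (r = 0.93), HRH2 points spread much further on the dimmer probe than on the brighter (r = 0.36), and GAL points show no relation (r = -0.064).

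None of the 7 probes was called in any of 16 comparisons, by limma's moderated test with Benjamini-Hochberg adjustment over all tested probes and a threshold of 0.05. Averaged over both sides, or over both sexes for the sides themselves, there were 6 comparisons, in which the share of all tested probes called was 0% for the GnRHa effect in males, 0% for that in females, 1.04% for the sex difference in untreated animals, 0.155% for the sex difference in GnRHa-treated animals, 0% for the interaction of sex and GnRHa and 0.139% for right against left. One of the 7 probes had an unadjusted p under 0.05 in each of these 6: HTR2A in the GnRHa effect in males and in the interaction, HRH2 in the GnRHa effect in females and in the sex difference in untreated animals, and GAL in the other two. A share of 3.85 to 15.2% of all tested probes reached that level there. The results below are therefore levels and differences with their error, of which none passed the test. Groups held at most 6 arrays, and where they are said not to overlap, the share of all probes that separate likewise is not given. Such a separation is therefore a description of the arrays and not support for a difference.

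**Figure D2:**
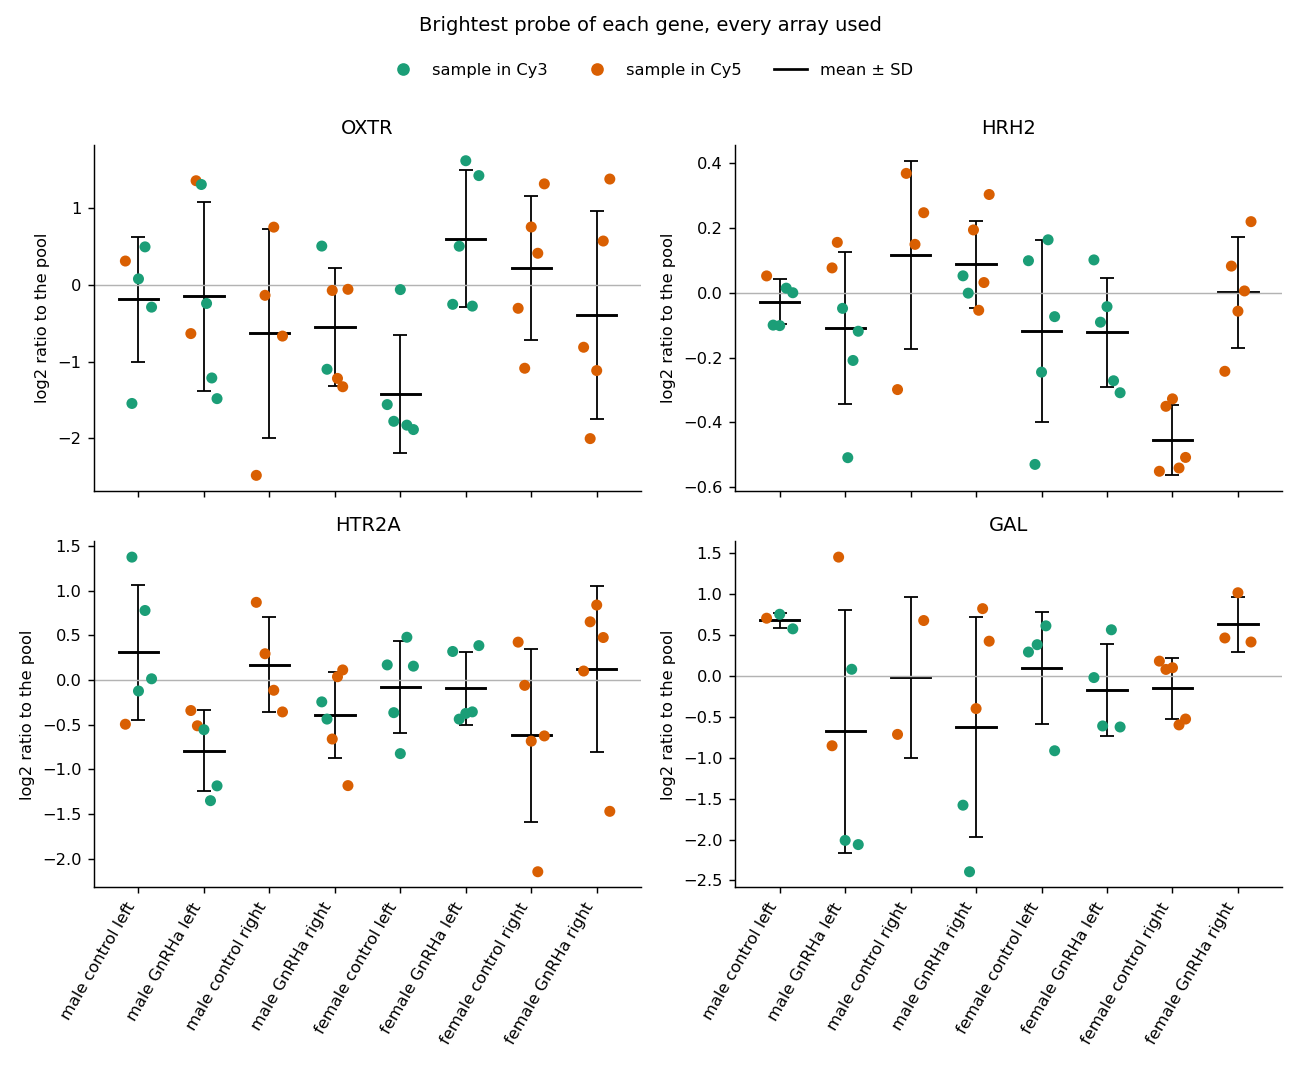
Log2 ratio to the pool of the brighter probe of each gene on every array (points, coloured by the dye of the sample), with the mean and SD of each group (black); y axes differ between genes. OXTR in female control left lies below the pool on all 5 arrays, and HRH2 in female control right lies between -0.55 and -0.33.

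OXTR varied more between arrays than 92.0% of 12068 probes with at least 30 values, with an SD of 1.09 over 41 arrays and a range from -2.48 to 1.61. Most of this spread lay within groups, where the SD was 1.03, against 0.60 for the SD of the 8 group means. In female control left, the 5 ratios were -1.56, -1.78, -0.064, -1.83 and -1.89, with a mean of -1.42 ± 0.77 (SD, n = 5). In female GnRHa left they were -0.26, 0.50, 1.61, -0.28 and 1.42, with a mean of 0.60 ± 0.90 (SD, n = 5). Every array of treated ewes thus stood above 4 of the 5 of untreated ewes on this side, and the one exception, replicate 5 of the untreated group, overlapped with the lower treated arrays.

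The GnRHa minus control difference in OXTR on the left side of females was 2.08 ± 0.64 (log2, SE), with an unadjusted p of 0.0028 and limma's adjusted p of 0.97. No probe of the array was called in this comparison (0%), and 0.19% of the tested probes had a lower p than OXTR. The dimmer OXTR probe gave 2.25 ± 0.72 with the same adjusted p of 0.97, and on that probe the groups did not overlap, with untreated ewes from -1.88 to -0.11 and treated ewes from 0.12 to 1.70. Both groups carried the sample in Cy3 on all 5 arrays. In the 5 twin pairs with both left arrays, the treated twin was higher in 5 of 5, by 1.31 to 3.31.

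On the right side of females this order was not found. Female control right held OXTR ratios of -0.31, -1.09, 0.75, 0.41 and 1.31 (mean 0.22 ± 0.94, SD, n = 5) and female GnRHa right held -0.81, -2.004, -1.12, 0.57 and 1.38 (mean -0.40 ± 1.36, SD, n = 5). The ranges overlapped, though 2 of the 5 treated arrays lay below every untreated one, and the difference was -0.65 ± 0.64 (limma's adjusted p = 0.88). This value depended on single arrays, with -0.25 without female GnRHa right replicate 4, -0.43 without replicate 5 and -1.06 without replicate 7 of that group, and -0.36 and -0.98 without female control right replicates 7 and 2. It was -0.023 with all 56 columns and -1.40 with the twin pair as a fixed block. Of 3 twin pairs with both right arrays, the treated twin was higher in 1. The GnRHa effect on the right less the effect on the left came to -2.73 ± 0.86 for the brighter probe (unadjusted p = 0.0031, adjusted p = 0.43) and -2.69 ± 0.95 for the dimmer (adjusted p = 0.46), a comparison in which 0.00773% of all probes were called. With all 56 columns as deposited the brighter probe gave -1.30. That comparison was added after the data were seen. Averaged over sides, OXTR differed between treated and untreated ewes by 0.72 ± 0.48 (adjusted p = 1.00), and by 0.31 with the twin pair as a fixed block.

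Male groups lay close together. Male control left had a median OXTR ratio of 0.076 with a range from -1.55 to 0.49 (mean -0.19 ± 0.81, SD, n = 5), and male GnRHa left had a median of -0.44 with a range from -1.48 to 1.35 (mean -0.15 ± 1.23, SD, n = 6). On the right, untreated rams ranged from -2.48 to 0.75 (mean -0.63 ± 1.36, SD, n = 4) and treated rams from -1.33 to 0.50 (mean -0.55 ± 0.77, SD, n = 6). All 4 of these ranges overlapped, and each GnRHa difference in males was smaller than its SE. In 3 of 3 twin pairs of rams with both left arrays the treated twin was nevertheless higher, by 0.81 to 1.28, against 1 of 3 pairs on the right. In order of their means the 8 groups were female GnRHa left, female control right, male GnRHa left, male control left, female GnRHa right, male GnRHa right, male control right and female control left, and each step between neighbours was smaller than the SDs of both groups except the last, which exceeded the SD of female control left and not that of male control right.

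**Figure D3:**
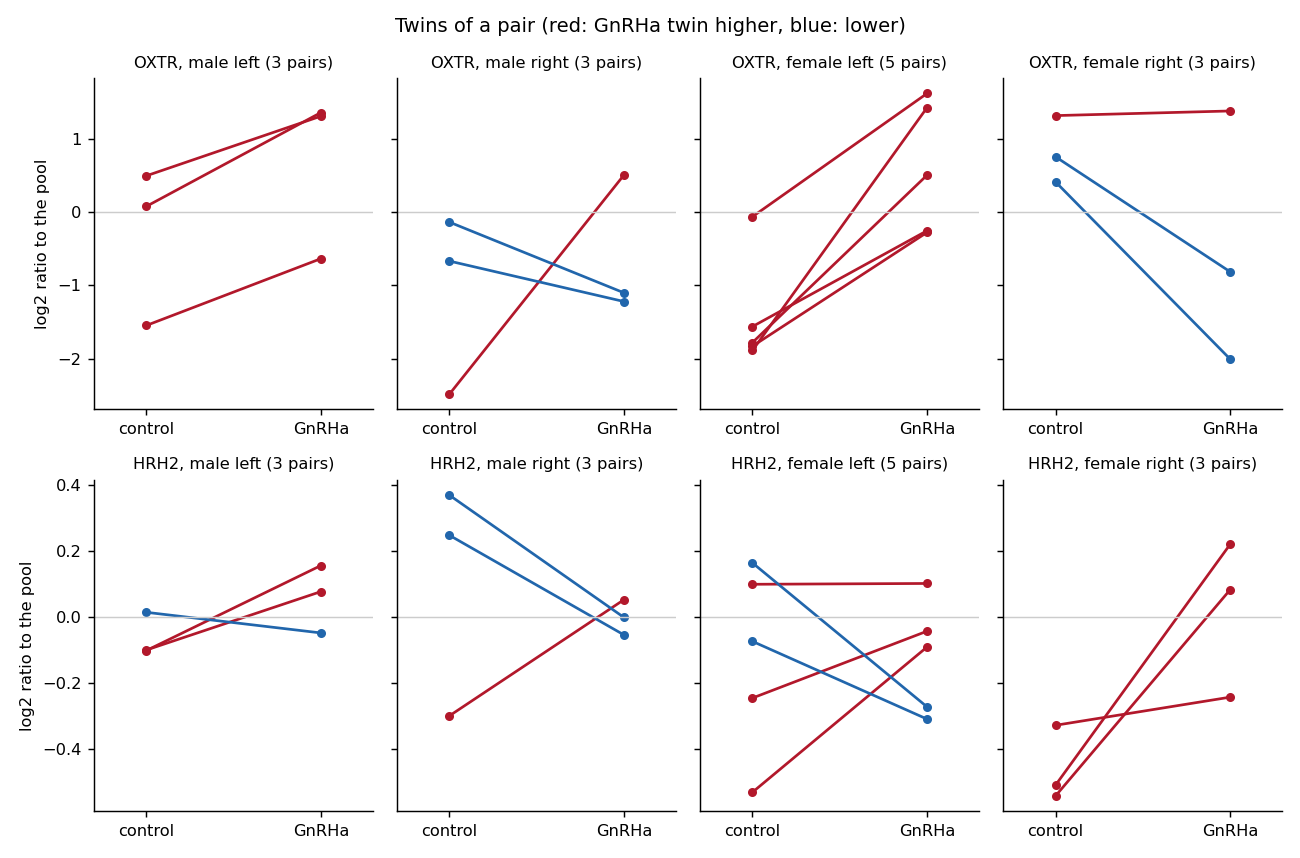
Lines join the untreated and the GnRHa-treated twin of each pair with both arrays used, as log2 ratio to the pool for OXTR (upper row) and HRH2 (lower row), by sex and side; red lines go up and blue lines go down. For OXTR the treated twin was higher in 5 of 5 female pairs on the left and in 1 of 3 on the right, and for HRH2 in 3 of 3 female pairs on the right.

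Sex differences in OXTR took opposite signs on the 2 sides of untreated animals, at -1.21 ± 0.65 (female minus male) on the left and 0.86 ± 0.68 on the right, with adjusted p of 0.28 and 0.74. The value on the right rested on single arrays, since leaving out male control right replicate 1 gave 0.22 and leaving out replicate 3 gave 1.29, and it was 0.40 with the turned columns as deposited and -0.16 with all 56 columns. In these comparisons 5.11% and 0.0773% of all probes were called. Within animals, the left and right ratios of OXTR were not alike, with a Pearson correlation of -0.24 over 16 animals with both sides. In all 3 untreated ewes with both sides the right was higher, by a median of 2.31, and in 4 of 5 treated ewes the left was higher. These comparisons within animals were made without removing the dye. In ewes every left array was in Cy3 and every right array in Cy5, so side and dye cannot be told apart there. Among rams the right was higher in 2 of 3 untreated and 1 of 5 treated animals.

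Markers of other cell types were read beside the OXTR difference in left female amygdala. In that comparison none of the 4 astrocyte markers tested of 7 listed, 5 of 9 for microglia and macrophages, 2 of 6 for endothelium, 1 of 5 for blood, 2 of 5 for choroid plexus and 6 of 8 for pituitary was called. No probe of the whole array was called there (0%), so that count says nothing about the cells in the tissue. The 2 choroid plexus markers, the thyroxine carrier TTR and the water channel AQP1, had differences of -1.39 ± 1.00 and -1.44 ± 0.80. The mean of these 2 genes ranged from -3.42 to 0.37 in female control left and from -2.70 to -1.23 in female GnRHa left. For astrocytes these ranges were -0.27 to 0.47 and -0.15 to 0.40, and for microglia and macrophages -0.45 to 0.87 and -0.11 to 0.34. For endothelium they were -1.63 to 0.75 and -0.72 to 1.05, and for blood -1.28 to 2.10 and -1.12 to 0.68. For pituitary markers they were -0.47 to 0.37 and -0.29 to 0.19. AQP1 (mean log2 brightness 5.24), the endothelial markers TEK (5.38) and KDR (5.56) and the blood marker HBB (5.66) lay within the range of the negative-control spots. So did ITGAM (5.57) and CD14 (5.62) of microglia and macrophages. The part of these markers in the OXTR values was not tested. In bulk tissue, fewer cells of a type and less RNA per cell cannot be told apart. The authors' deposited table of each group against the pool gives OXTR its lowest adjusted p of these 4 genes, 0.15, in female GnRHa left, with a log2 fold change of 0.37 for the dimmer probe. None of the 88 entries for the 11 spots of the 4 genes in the 8 groups of the authors' deposited table had an adjusted p under 0.05, and their log2 fold changes lay between -0.30 and 0.37.

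On its brighter probe HRH2 showed the opposite kind of variation, with an SD over arrays of 0.24, larger than that of only 11.5% of probes, and 1 group that stood apart. In female control right the 5 ratios were -0.55, -0.35, -0.33, -0.54 and -0.51, with a mean of -0.46 ± 0.11 (SD, n = 5). The other 7 groups had means between -0.12 and 0.12. Female GnRHa right ranged from -0.24 to 0.22 (mean 0.0020 ± 0.17, SD, n = 5) and male control right held -0.30, 0.37, 0.15 and 0.25 (mean 0.12 ± 0.29, SD, n = 4). Untreated ewes thus lay below both of these groups on the right with no overlap, though the gap to the lowest untreated ram was small. The dimmer HRH2 probe had an SD of 0.82, larger than that of 76.9% of probes. On that probe female control right (mean -0.37) did not stand apart, as male control right was lower (-0.52).

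Between untreated ewes and rams on the right, HRH2 differed by -0.57 ± 0.13 (female minus male, unadjusted p = 0.00015, limma's adjusted p = 0.093), and 0.13% of the tested probes had a lower p. Of all probes, 0.0773% were called in this comparison. Fitted on these 2 groups alone, the adjusted p was 0.52. HRH2 passed the threshold when arrays were weighted by their quality (adjusted p = 0.022). Those weights called 197 probes of the array, against 10 in the main fit. HRH2 also passed when male control right replicate 1, the single ram below the pool, was left out (-0.71, adjusted p = 0.019). It moved further from the threshold without replicate 2 of that group (-0.49, adjusted p = 0.34). The same held with the turned columns as deposited (-0.36, adjusted p = 0.72) and with all 56 columns (-0.44, adjusted p = 0.88). On the left the difference was smaller than its SE, and averaged over sides it was -0.31 ± 0.097 (adjusted p = 0.099). The dimmer HRH2 probe did not share this difference, with 0.11 ± 0.53 on the right. In the same comparison no marker of another cell type was called. Astrocyte markers were higher in ewes for 4 of 4 (median difference 0.41), endothelial for 2 of 2 (1.03) and choroid plexus markers for 0 of 2 (-0.78). Both endothelial markers and AQP1 were as dim as the negative-control spots. The mean of the choroid plexus markers ran from -2.39 to -1.40 in female control right and from -1.78 to 0.057 in male control right. For microglia and macrophages these ranges were -0.20 to 0.44 and -0.30 to -0.023. For HBB they were -2.26 to -0.63 and -2.22 to 0.42, and for pituitary markers -0.20 to 0.56 and -0.32 to 0.27. HBB, ITGAM, CD14 and the pituitary markers other than LHB were also that dim. The part of all these markers in the HRH2 values was not tested.

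The GnRHa minus control difference in HRH2 on the right side of females was 0.45 ± 0.13 (unadjusted p = 0.0011, limma's adjusted p = 0.41), in a comparison with 0% of all probes called and 0.25% at a lower p. Array weights gave 0.53 with an adjusted p of 0.023, and called 237 probes of the array. Here the dimmer probe moved the same way, with 1.05 ± 0.50 (adjusted p = 0.76) and all 5 treated ewes above the pool (0.071 to 1.34) against 5 of 5 untreated ewes below it (-0.68 to -0.061). In 3 of 3 twin pairs the treated ewe was higher on the right, and on the left in 3 of 5. Left groups of females had nearly equal HRH2 means of -0.12 ± 0.28 (control) and -0.12 ± 0.17 (GnRHa, both SD, n = 5). Without the array that had been turned, together with the 2 other turned arrays, the right side difference was 0.44 with an adjusted p of 0.78, and with those 3 as deposited it was 0.24. With all 56 columns it was 0.20. No marker of another cell type was called here either, with astrocyte markers higher in treated ewes for 0 of 4 (median difference -0.26), microglia and macrophage markers for 4 of 5 (0.36), both choroid plexus markers (0.88) and the blood marker HBB (1.21 ± 0.70). HBB ranged from -2.26 to -0.63 in female control right and from -1.60 to 0.62 in female GnRHa right. The mean of the endothelial markers ran from 0.044 to 1.28 in female control right and from -0.60 to 1.49 in female GnRHa right. For pituitary markers these ranges were -0.20 to 0.56 and -0.15 to 0.51. In brightness HBB, AQP1, ITGAM, CD14, TEK, KDR and the pituitary markers other than LHB lay within the range of the negative-control spots. The part of all these markers in this HRH2 difference was not tested. In rams the brighter HRH2 probe showed no GnRHa difference larger than its SE on either side, and the dimmer gave 0.98 ± 0.54 on the right (adjusted p = 0.60).

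HTR2A was measured by 1 dim probe with an SD of 0.70 over 40 arrays. Untreated rams had the highest means of the 8 groups, 0.31 ± 0.75 (SD, n = 5) on the left, where the ratios were -0.50, 1.37, -0.12, 0.78 and 0.013, and 0.17 ± 0.54 (SD, n = 4) on the right. Treated rams ranged from -1.35 to -0.34 on the left (mean -0.79 ± 0.45, SD, n = 5) and from -1.18 to 0.11 on the right (mean -0.40 ± 0.48, SD, n = 6). All 5 treated left arrays with a value, and all 6 on the right, stood below the mean of the untreated rams of that side, but the ranges overlapped.

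The GnRHa minus control difference of HTR2A in males was -0.82 ± 0.32 over both sides (unadjusted p = 0.014, limma's adjusted p = 0.28), -1.05 ± 0.43 on the left (adjusted p = 0.24) and -0.59 ± 0.44 on the right (adjusted p = 0.72). On the right it was -0.31 without male control right replicate 1. The share of probes called was 0.302% in the left comparison and 0.0387% in the right. In females the difference over both sides was 0.34 ± 0.32 (adjusted p = 1.00), and the interaction of sex and GnRHa was 1.16 ± 0.45 (adjusted p = 0.54). The female value was 0.17 without female control right replicate 4 and 0.55 without female GnRHa right replicate 7, 0.097 with array weights and 0.62 with the twin pair as a fixed block. With all 56 columns it was -0.31 and the interaction 0.30. In the interaction and in treated animals, sex and age at first implant cannot be told apart. Sex differences in HTR2A also had opposite signs without and with treatment, at -0.57 ± 0.32 in untreated and 0.59 ± 0.31 in GnRHa-treated animals (adjusted p of 0.41 and 0.67). On the right of treated animals, where 0.0696% of all probes were called, it was 0.53 ± 0.42, and 0.94 or 0.34 without female GnRHa right replicate 7 or 5, 0.35 without male GnRHa right replicate 7 and -0.011 with array weights. With all 56 columns the differences over both sides were -0.091 and 0.21. Among twins, the treated ram was lower in 3 of 3 pairs on the left. On the right it was higher in 1 of 3 pairs, with differences from -1.11 to 0.39. The treated ewe was higher in 3 of 5 pairs on the left and in 2 of 3 on the right.

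Galanin values were the least certain. On the brighter probe, male control left held 0.71, 0.76 and 0.58 on the 3 arrays with a value, and male GnRHa left held -0.85, 1.45, -2.01, 0.083 and -2.06. The treated rams spanned both sides of the untreated range, and the difference was -1.48 ± 0.52 (unadjusted p = 0.0093, limma's adjusted p = 0.19). The dimmer GAL probe gave 0.31 ± 0.78 for the same comparison, the opposite sign. In female GnRHa right the 3 values, 0.42 to 1.02, lay above the 5 of female control right, -0.60 to 0.18, with a difference of 0.81 ± 0.52 (adjusted p = 0.83), and again the dimmer probe had the opposite sign (-0.16 ± 0.78). With the turned columns as deposited the brighter probe gave 0.41.

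GAL was also the one gene of the 4 whose ratio differed with the dye of the sample. Its brighter probe was higher by 1.54 ± 0.39 with the sample in Cy5 than in Cy3 (limma's adjusted p = 0.022), in a comparison that called 7.67% of all probes. The dimmer probe differed by 0.26 ± 0.63 and was not called. Right against left, the GAL difference was -1.11 ± 0.38 (adjusted p = 0.24) with the dye fitted and -0.020 ± 0.33 without it, or -0.57 with the turned columns as deposited, since right arrays were mostly Cy5 and left arrays mostly Cy3. Between treated ewes and rams GAL differed by 0.90 ± 0.37 (adjusted p = 0.52), and the dimmer probe gave -0.0020 ± 0.55.

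**Figure D4:**
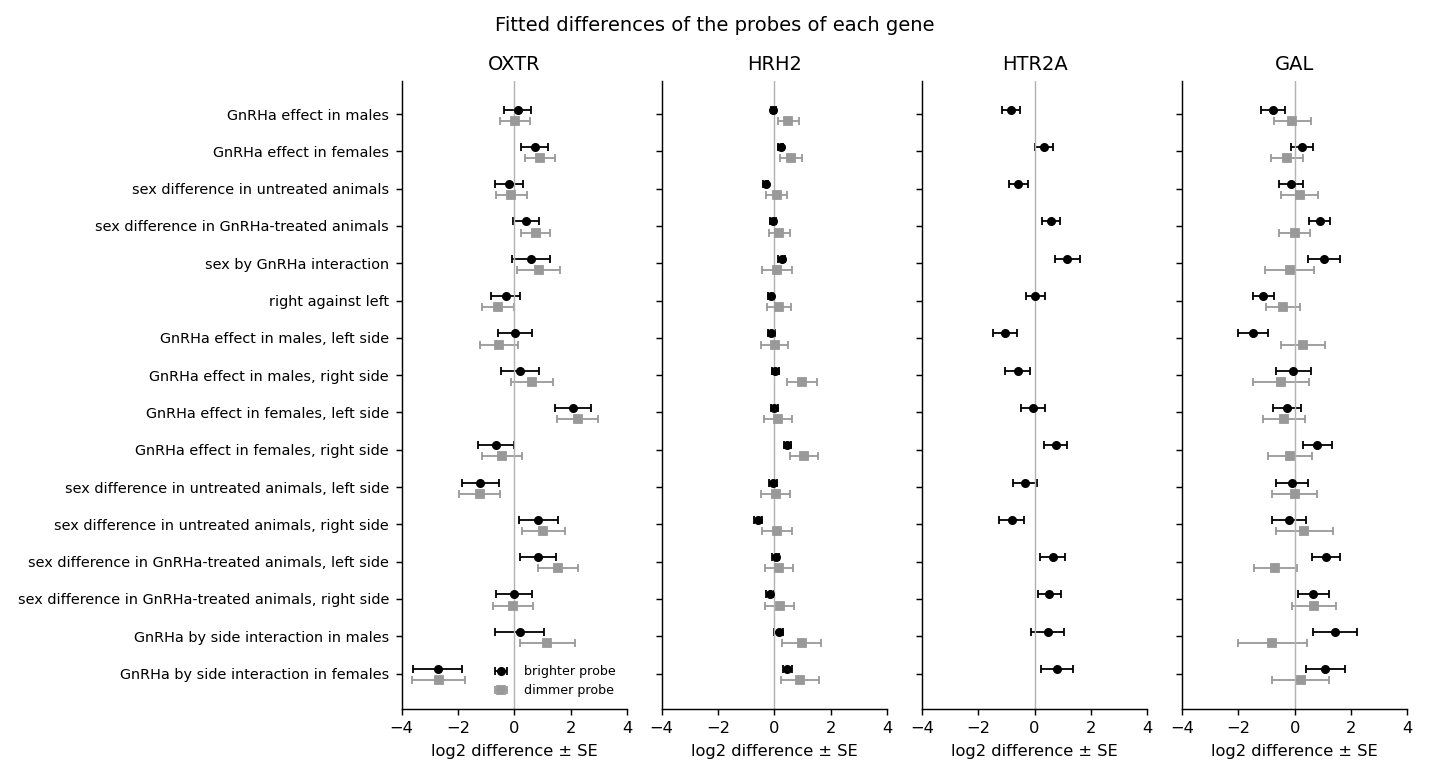
Fitted log2 differences ± SE of the brighter (black) and dimmer (grey) probe of each gene in the 16 comparisons, as GnRHa minus control, female minus male, right minus left or a difference between 2 such effects. The largest differences are those of OXTR on the left of females (2.08 and 2.25) and between sides in females (-2.73 and -2.69), where both probes coincide; for GAL the 2 probes often fall on opposite sides of 0.

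Across the 41 arrays the 4 genes did not vary together. After the dye difference was removed, OXTR correlated with GAL at 0.0096 (31 arrays), with HRH2 at 0.060 (41) and with HTR2A at -0.40 (40), and GAL, HRH2 and HTR2A correlated with each other at 0.16 to 0.23. These correlations are a description over arrays that share the pool and, in part, the animal. The named genes most like OXTR were LGALS1 (galectin-1, a galactoside-binding protein) at 0.64, ESR1 (the oestrogen receptor alpha) at 0.57 and NTN4 (a netrin of basement membranes) at 0.52 among 552 genes, and the least like was the growth factor BMP6 at -0.47. With group means removed, the 4 correlations were 0.64, 0.57, 0.57 and -0.52, so they lay within groups as much as over all arrays. For HRH2 the 3 genes of highest correlation were ENDOG, CSN2 and TGFBR3 (0.65, 0.56 and 0.53) and the lowest was SSTR5 (-0.56), and with group means removed these were 0.45, 0.36, 0.37 and -0.51. For HTR2A they were EDNRA, HSPA5 and SLC16A1 (0.56, 0.45 and 0.43) and SLC17A5 (-0.42), with 0.55, 0.46, 0.45 and -0.41 within groups. For GAL, over 30 or 31 arrays and 456 genes, they included APOBEC3F and UMPS (0.61 and 0.58), and the lowest was SLC1A1 (-0.68). Within groups those GAL values were 0.22, 0.15 and -0.56. UMPS (mean log2 brightness 5.36) and SLC1A1 (5.58) lay within the range of the negative-control spots, and APOBEC3F (5.71) just above it. The GAL probe also lay in that range, and over 20 other spots shared 96.8% of its values. Its correlations are therefore a weak guide to likeness between genes.

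Other genes of the same pathways were read from lists of peptide and amine ligands, receptors, enzymes and G protein signalling genes. Of 115 listed genes 26 could be named on the array and 23 were tested by their brightest probe. None of the 23 was called in any of the 16 comparisons. Between 9 and 15 of the 23 were higher in each comparison. Over the 6 averaged comparisons their median difference lay between -0.11 and 0.0056, against -0.0080 to 0.0024 for all probes. Most of the histamine and serotonin genes had no named probe (0 of 6 and 1 of 18, not tested), and the synthesis and breakdown of the amines acting on HRH2 and HTR2A were not analysed here.

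The 2 genes of lowest p on these lists are given for each averaged comparison, and none of them passed the test. In males the GnRHa differences were 0.31 ± 0.18 for POMC, the precursor of ACTH and beta-endorphin, and -0.39 ± 0.23 for CRHR1, a receptor of corticotropin-releasing hormone (adjusted p of 0.51 and 0.52). In females they were -0.88 ± 0.44 for the noradrenaline transporter SLC6A2 and 0.23 ± 0.19 for SST (both adjusted p = 1.00). Untreated ewes and rams differed by -0.37 ± 0.17 in RGS2, a regulator of Gq signalling, and by 1.29 ± 0.60 in the neuropeptide gene ADCYAP1 (adjusted p of 0.28 and 0.30). In treated animals the differences were -0.49 ± 0.18 for POMC and -0.97 ± 0.43 for SLC6A2 (adjusted p of 0.39 and 0.60). These same genes led the interaction of sex and GnRHa, with -1.42 ± 0.64 for SLC6A2 and -0.45 ± 0.26 for POMC (adjusted p of 0.61 and 0.68). As right minus left, the differences were 1.69 ± 0.54 for SLC6A2 and -0.56 ± 0.24 for PRKACA, a catalytic subunit of protein kinase A (adjusted p of 0.21 and 0.34).

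Oxytocin itself (OXT), the ligand of OXTR, was measured by 2 probes with a mean log2 brightness of 5.82 and 5.71 that correlated at 0.45 over 41 arrays. On the left of treated animals its dimmer probe was lower in ewes than in rams by -0.69 ± 0.16 (limma's adjusted p = 0.032), with female GnRHa left from -0.76 to -0.34 and male GnRHa left from -0.054 to 0.35, ranges that did not overlap. In this comparison 2.19% of all probes were called, and sex and age at first implant cannot be told apart in it. The brighter OXT probe gave -0.64 ± 0.23 (adjusted p = 0.10). This probe of OXT was named after its values were seen. OXT and OXTR correlated at 0.16 over arrays. The galanin receptors GALR1 and GALR3 and the vasopressin receptor AVPR1B were not called by any probe in any of the 16 comparisons.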

How the data were processed

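Each array's deposited column holds log2 ratios between sample and pool. The authors made them from scanner signals read with Agilent Feature Extraction 9.1, per the submitters' processing notes. Background correction, normalization and the direction of the ratios are not given in the sources used here. The ratios were read as sample over pool, which is an assumption. The 3 turned arrays were set by their spike-ins, which show whether columns run alike and not which direction they have. A further table per group, also deposited by the authors, sets it against the pool with log2 fold changes, a mean log2 brightness over all arrays, a t score, per the file headers, and p-values before and after adjustment.

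For each array the mean ratios of 10 spike-in probes (20 spots each) were regressed on the median of the other arrays. Columns with an absolute slope under 0.5 were left out (15 columns, slope at most 0.208, 27.4 to 40.9% of spots without a value). The 41 used had slopes of 1.13 to 1.26 in size and 2.49 to 19.6% without a value. The 3 columns of negative slope were multiplied by -1 and their dye code reversed. Spots of a probe were averaged. Tests needed 2 or more values per group in all 8 (12930 of 15008 probes). Of all probes 1268 had a gene name, from accessions, symbols, gene numbers, synonyms or descriptions. GAL was named through its gene number.

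A linear model with a mean per group, the dye as a fixed term and the animal as a random block (within-animal correlation 0.147, duplicateCorrelation) was fitted by generalized least squares for each pattern of missing values, with variances moderated by squeezeVar of limma 3.58.1 (R 4.3.3). This replaced limma's own contrasts step, which is approximate where values are missing. Tests were two-sided, with Benjamini-Hochberg adjustment over all tested probes. The fit was tested on simulated data. The members and the gene lists were chosen with earlier results of these data known. Where a gene has several probes the brightest stands for it. From the pathway lists, genes called or else the 2 of lowest p in each averaged comparison are named, and for likeness the 3 genes of highest and the 1 of lowest correlation, over genes sharing at least 30 arrays; one such gene is not reported here.

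Replicates are separate animals, and the labels state which animals are twins. Deviations of twins on the same side from their group means correlated at -0.10 to 0.25 (median -0.0035, 14 pairs of arrays, 9370 probes). The alternatives tried were the turned columns as deposited or left out, all 56 columns as deposited, the fit without dye or without the animal block, twin pair as a random or a fixed block, array weights, centring, quantile normalization, probes measured on every array, sides averaged, only the groups compared, and leaving out each array in turn. Python 3.11.15, numpy 2.4.6 and pandas were used. No sequences of probes or genes were used here.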

Additional observations from a re-analysis of the deposited data

Results flagged for a closer look

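One of 52 sets of values, each a probe in a group of 4 to 6 arrays, held an array far from the others by Dixon's test at the 95% level; chance gives about 1 in 20. OXTR in female control left replicate 5 stood at -0.064, while the other 4 arrays of that group lay between -1.89 and -1.56, a gap of 0.82 of the whole range. Without this array the GnRHa minus control difference of OXTR on the left of females was 2.43, against 2.08 with it.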

How the results depend on the processing

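Of 64 differences (4 genes in 16 comparisons), 27 were smaller than their own SE and were not followed further; of 1090 recomputed values of the other 37, 1078 kept their direction and their side of the threshold. HRH2 passed the threshold with array weights on the right of females (1 probe called; difference 0.53) and between untreated animals on the right (1 called; -0.57), and in the latter without male control right replicate 1 (-0.71), so that leaving out arrays gave 0 to 1 called probes there. All other comparisons had 0 member probes called under every alternative run. Where HRH2 passed with array weights, that setting called 237 probes of the whole array (GnRHa effect on the right of females) and 197 (untreated animals on the right). Directions reversed with all 56 columns as deposited for HTR2A in the GnRHa effect in females (-0.31, and -0.25 on the right), GAL right against left (0.095), OXTR and HTR2A between untreated animals on the right (-0.16 and 0.16) and GAL between sides of males (-0.27). They reversed for HRH2 right against left with the turned columns as deposited (0.040) or no dye term (0.033), and for HTR2A between treated animals on the right with array weights (-0.011). The OXTR difference on the left of females ranged from 1.28 (all 56 columns) to 2.10, and from 1.80 to 2.43 with arrays left out in turn. With the twin pair as a fixed replicate block it was 2.02, and the twin block changed no call among 60 gene values. The cause of these shifts was not tested.

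Counts over all probes depended more on the setting. The sex difference in untreated animals had 134 called probes (2 with all 56 columns, up to 349 without male control left replicate 1) and that on the left 661 (0 to 923). The sex difference in treated animals had 20 (3 to 172), on the left 283 (4 to 2208) and on the right 9 (0 to 174), and that of untreated animals on the right 10 (0 to 197). GnRHa effects had 0 in males (up to 211), 39 on their left (0 to 91), 5 on their right (0 to 9), 0 in females (up to 3), 0 on their right (up to 237) and 0 on their left under every alternative run. Right against left had 18 (557 with no dye term), the GnRHa by side differences 18 in males (0 to 86) and 1 in females (0 to 111), and the interaction of sex and GnRHa 0 (up to 1). Low signal limits GAL and HTR2A most.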
